A study of Homo sapiens with 5 samples.

Results

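The miRNA profile of U937, a human myeloid line with monocytic features that was derived from a histiocytic lymphoma, was compared with those of 4 other transformed hematopoietic lines, Meg01, Jurkat, Raji and K562. Meg01 is a megakaryoblastic line and K562 an erythroleukemic line, both from chronic myeloid leukemia, whereas Jurkat is a T lymphoblastic and Raji a B lymphoblastic line. Total RNA of each line, 100 ng per assay, was counted on the nCounter miRNA panel, in which a color-coded reporter is counted for each target without amplification. The labels name no treatment or transgene, and each sample is a culture of a transformed line and not of primary cells.

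Of the 654 human miRNA probes on the panel, 187 entered the comparison. A probe entered if its scaled count was above the background threshold in U937, which was the case for 185, or in all 4 other lines, which added miR-125b and miR-579. A scaled count is a raw count multiplied by 1 factor per line, set so that the geometric mean of the 100 most abundant probes was the same in all lines. The threshold of a line is the mean plus 2 SD of its 8 scaled negative control probes. A ratio is given as a bound where the lower of both lines was at or below its threshold, which then took the place of its count. With 1 sample per line there was no replicate check and no line was tested against another. The intervals in the text are exact 95% intervals for counting error only, and a ratio past 2-fold is used below as a description of size.

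The miRNAs are short RNAs that guide Argonaute proteins to messenger RNAs, mostly through pairing of the seed at bases 2 to 8 of the miRNA, and thereby lower translation and stability of the target. In blood cells several miRNAs mark a lineage. miR-223 is known from granulocytes and monocytes, miR-150 and the miR-181 family from lymphocytes, miR-144 and miR-451 from erythroid cells and miR-126 from progenitors, megakaryocytes and endothelium. miR-196b lies in the HOXA cluster and is known from myeloid leukemias with high HOXA expression.

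The sequences below are those on which the comparison turned, with the seed in capitals. They are mature miRNAs from RefSeq, on build GRCh38.p14, and the deposited files give neither sequences nor coordinates. miR-196b and miR-196a are shown first because the former separated U937 from all other lines and the latter is its closest relative. miR-196b maps to the minus strand at chr7:27169528-27169549, between HOXA9 and HOXA10 and within the HOXA10-HOXA9 read-through gene.
miR-196b: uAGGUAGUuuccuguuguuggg
miR-196a: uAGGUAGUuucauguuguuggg
Both share their seed and differ by the single substitution C12A, with positions counted from the 5′ end and the base of miR-196b first. The let-7 miRNAs and miR-15a are shown because most of the largest ratios of U937 over Meg01 and K562 were theirs, and miR-16 because it shares a transcript with miR-15a. let-7g maps to chr3:52268336-52268357 within WDR82, let-7i to chr12:62603691-62603712 within the noncoding MIRLET7IHG, and miR-98 to chrX:53556299-53556320 within HUWE1. miR-15a maps to chr13:50049167-50049188 and a copy of miR-16 to chr13:50049027-50049048, both within the noncoding DLEU2.
let-7g: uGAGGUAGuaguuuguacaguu
let-7i: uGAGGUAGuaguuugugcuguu
miR-98: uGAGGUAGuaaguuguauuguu
miR-15a: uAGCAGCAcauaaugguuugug
miR-16: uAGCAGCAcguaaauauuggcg
The seed GAGGUAG was common to the 9 let-7 probes of the panel with a RefSeq match, and AGCAGCA to miR-15a, miR-15b, miR-16 and miR-424. miR-223, miR-23a and miR-24 are shown because they separated U937 from the lymphoid lines, and miR-27a because it lies in the same cluster as miR-23a and miR-24. Their seeds differ from each other. miR-223 maps to chrX:66018937-66018958 within the noncoding MIR223HG. miR-23a, miR-27a and a copy of miR-24 lie together in MIR23AHG, from chr19:13836595-13836615 for miR-23a through chr19:13836447-13836467 for miR-27a to chr19:13836289-13836310 for miR-24, all on the minus strand.
miR-223: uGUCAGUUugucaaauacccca
miR-23a: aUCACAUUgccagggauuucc
miR-24: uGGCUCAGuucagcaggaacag
miR-27a: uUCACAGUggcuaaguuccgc

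The human probes of U937 gathered 94027 raw counts in total, within the range of 66892 to 130048 over all lines. The positive controls of U937 summed to 19329, the lowest of the 5 lines. The factor of U937 was 1.04 and its threshold 36.4 scaled counts, and thresholds of the other lines ranged from 28.2 in Jurkat to 72.4 in Raji. Of the 187 probes, 88 were above threshold in all 5 lines and 20 in U937 alone. The highest of these 20, miR-409-3p, had 54.3 scaled counts in U937, 1.49 times the threshold, so none of them was far from background.

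U937 was past 2-fold outside the range of the other lines for a single probe, miR-196b. Its raw counts were 388 in U937, 160 in Meg01, 19 in Jurkat, 22 in Raji and 19 in K562. After scaling, these were 405 in U937 and 119 in Meg01, and the remaining lines were below their thresholds. As each count comes from the RNA of a whole culture, fewer expressing cells and less miRNA per cell cannot be told apart. U937 therefore exceeded Meg01 by 3.41-fold (95% interval 2.83 to 4.13), Jurkat by at least 14.4-fold, K562 by at least 9.56-fold and Raji by at least 5.59-fold. The ratio to Meg01 was 2.42 on unscaled counts and 3.57 when the positive controls set the scale, so that miR-196b was past 2-fold above every other line under each scaling that was tried.

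No probe of U937 was past 2-fold below the lowest of the other lines. The 1 probe above the range was 0.535% of the 187 and the absence of any below it 0%. The same rule, applied to each other line with its own set of probes, found 15 of 183 probes outside the range in Meg01 (8.2%), 15 of 186 in K562 (8.06%), 9 of 139 in Raji (6.47%) and 7 of 229 in Jurkat (3.06%). With the scaling and thresholds used here, U937 thus had the fewest probes outside the range of its fellow lines. A line below threshold entered at it, so a probe of U937 could be above the range only at over 2-fold Raji's threshold of 72.4 scaled counts. Meg01, Jurkat and K562 faced the same floor, but Raji only the 42.3 of K562, so its share is not on like terms. Without Raji, miR-146a, miR-155 and miR-29a joined miR-196b above the range of the lines other than U937, and miR-183 fell below it. For 17 probes U937 was the highest of the 5 lines by any margin, and for 10 of these the counting interval excluded equality with the next line. For 10 probes it was the lowest by any margin, and for 4 of these the interval excluded equality.

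**Figure D1:**
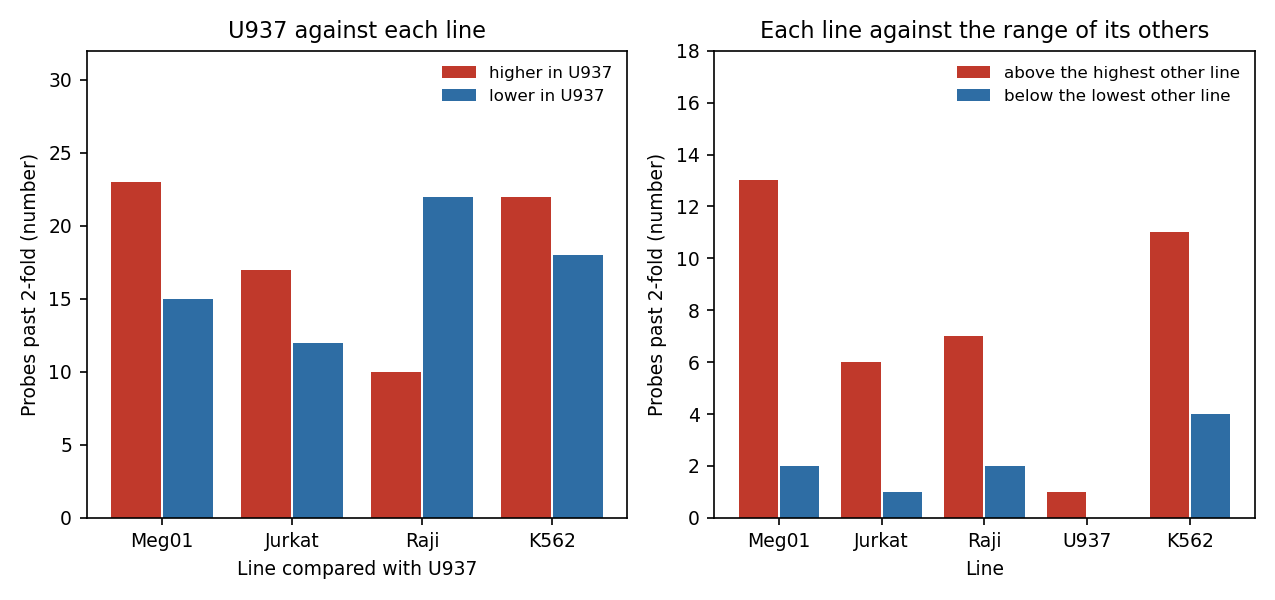
Numbers of probes past 2-fold, as bars from 0. On the left U937 is compared with each of the other lines, with 23, 17, 10 and 22 probes higher and 15, 12, 22 and 18 lower, and on the right each line is compared with the range of its 4 others, where U937 had 1 probe above and none below.

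The miRNAs next in this order, named after their values were seen, stayed within 2-fold of another line. miR-199b-5p had 266 scaled counts in U937 and 139 in Meg01 and was below threshold in Jurkat, Raji and K562. The shared probe of miR-199a-3p and miR-199b-3p had 159.6 scaled counts in U937, 93.4 in Meg01, 33.8 in Jurkat and 55.0 in K562 and was below threshold in Raji. These probes of both hairpin arms thus had the order of U937 before Meg01 before the rest. U937 exceeded Meg01 by 1.92-fold (1.58 to 2.33) for miR-199b-5p and by 1.71-fold (1.34 to 2.18) for the shared probe. miR-23a, the next, exceeded Meg01 by 1.65-fold (1.48 to 1.85).

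At the other end, miR-1274a and miR-720 were lowest in U937. miR-183, also named after its values were seen, was lower in U937 than in the 3 other lines that measured it, with 47.0 scaled counts in U937, 112 in Meg01, 122 in Jurkat and 151.6 in K562, but in Raji it was below a threshold that is itself 1.54 times the level of U937, so that the order of U937 and Raji is not known. miR-1274a was 1.49-fold (1.15 to 1.95) and miR-720 1.38-fold (1.29 to 1.47) below the next line, Jurkat.

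Among the other HOX cluster miRNAs, U937 was not set apart. miR-196a, of the HOXB and HOXC clusters, had 138 scaled counts in U937, 129.7 in Jurkat, 92.9 in K562 and 33.4 in Meg01 and was below threshold in Raji. It was thus 4.13-fold (2.92 to 5.93) above Meg01 and within 2-fold of Jurkat and K562. As miR-196a and miR-196b differ by 1 base, signal can pass between their probes too, and its part was not tested. miR-10a, which lies in HOXB3, had 88.7 scaled counts in U937, 67.5 in Meg01, 58.8 in Jurkat, 136 in Raji and 292 in K562, which was 3.30-fold above U937. miR-615-5p was lowest in U937, with 54.3 scaled counts against 64.5 in the next line, Meg01. It was past 2-fold lower than in Raji, but under 2-fold with each of the 4 other scalings. Of the 6 HOX cluster probes 4 entered the comparison, and miR-196b was the only one past 2-fold higher in U937 in all 4 pairs.

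**Figure D2:**
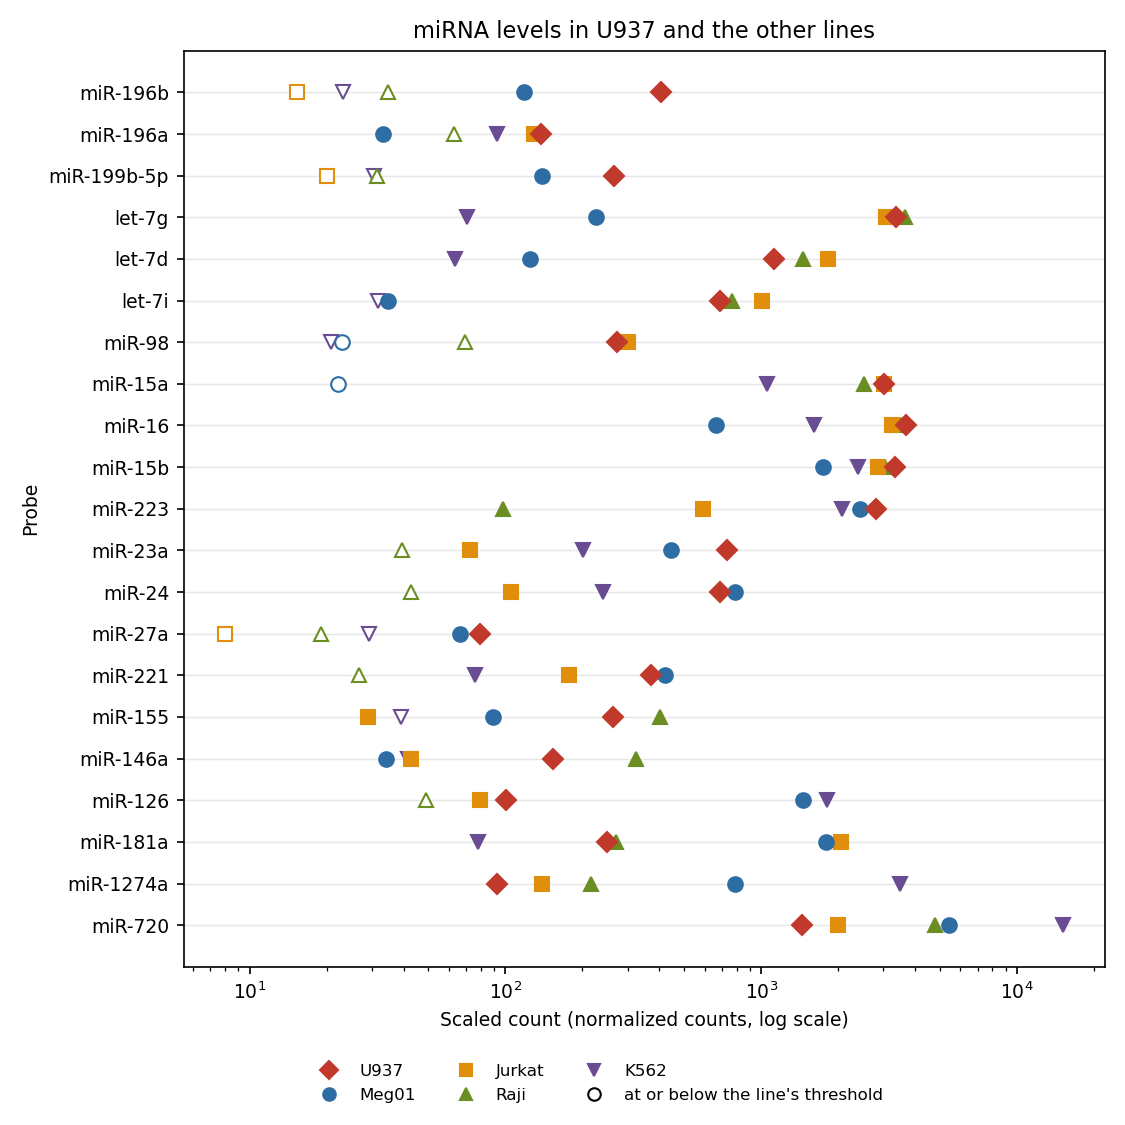
Scaled counts of 21 probes in each of the 5 lines, on a log axis, with 1 point per line and open points for lines at or below their own threshold. U937 (diamonds) is clear of all other lines for miR-196b and groups with Meg01 and K562 for miR-223. It groups with Jurkat and Raji for let-7g, let-7d, let-7i and miR-15a, and with Jurkat alone for miR-98.

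U937 was past 2-fold higher than Meg01 for 23 of 187 probes (12.3%) and lower for 15 (8.02%), with a median log2 ratio of 0.35 over all 187. It was higher than K562 for 22 probes (11.8%) and lower for 18 (9.63%), with a median of -0.16. The rule admits probes mostly by their level in U937, so the balance in each pair can leave out probes high in the other line alone. With all probes above threshold in either line, the split turned to 23 higher and 31 lower against Meg01 and 22 and 27 against K562. The 4 pairs share the U937 sample, so their values are given side by side and are not independent of each other. In both of these pairs the let-7 family, known for repressing growth and stem cell genes, supplied most of the largest ratios in favor of U937. The median log2 ratio of its 8 compared probes was 3.01 against Meg01 and 3.03 against K562, but -0.09 against Jurkat and -0.13 against Raji.

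let-7g had 3359 scaled counts in U937, 3064 in Jurkat and 3634 in Raji, but 226 in Meg01 and 70.9 in K562. The difference came to 14.9-fold (13.2 to 16.8) against Meg01 and 47.4-fold (36.5 to 62.5) against K562. let-7d had 1122 scaled counts in U937, 1827 in Jurkat and 1459 in Raji against 125 in Meg01 and 63.6 in K562. let-7f had 1606 in U937, 1657 in Jurkat and 1403 in Raji against 217 in Meg01 and 155 in K562. These 3 miRNAs were thus within 2-fold among U937 and the lymphoid lines and between 7.39 and 47.4-fold higher in U937 than in Meg01 and K562.

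let-7i was closer to background in Meg01, with 692 scaled counts in U937, 1008 in Jurkat and 767 in Raji but 34.8 in Meg01, a difference of 19.9-fold (14.8 to 27.3), and it was below threshold in K562, at least 16.3-fold below U937. miR-98 had 273 scaled counts in U937 and 301 in Jurkat and was below threshold in Meg01, Raji and K562. It exceeded Meg01 by at least 8.76-fold and K562 by at least 6.46-fold. Of the 8 compared let-7 probes, miR-98 alone was also past 2-fold from a lymphoid line, by at least 3.78-fold from Raji, where its raw count of 44 was just under the threshold of 45.9 raw counts.

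The let-7 members did not all behave alike. let-7a had 951 scaled counts in U937 and 803 in Meg01 but 313 in K562, so that U937 exceeded K562 by 3.04-fold and Meg01 by 1.18-fold. let-7e had 155.5 scaled counts in U937, 193 in Meg01 and 199 in K562, and let-7c had 52.2 in U937 and 85.3 in Meg01. let-7e was within 2-fold of U937 in every line and let-7c in every line that measured it, which K562 did not, being below threshold. let-7b, the remaining one of the 9 let-7 probes, was below threshold in U937 with a raw count of 15, as in all lines but Jurkat, where it had 412 scaled counts. In all, 5 of 8 compared let-7 probes were past 2-fold higher in U937 than in Meg01 (12.3% of all 187 probes), 6 of 8 than in K562 (11.8%), 0 than in Jurkat (9.09%) and 1 than in Raji (5.35%). The counts against Jurkat and Raji are near those shares. Each of the 12 calls remained under all 4 alternative scalings. As let-7 miRNAs differ by few bases, 2 between let-7g and let-7i, signal can pass between their probes, and its part in these values was not tested.

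miR-15a, which together with miR-16 is known for repressing BCL2 and cell cycle genes, gave the largest ratio of all to Meg01. Its raw counts were 2902 in U937, 3746 in Jurkat, 1599 in Raji and 860 in K562 but 30 in Meg01, which was below threshold. U937 thus exceeded Meg01 by at least 97.0-fold and K562 by 2.88-fold (2.67 to 3.11), and was within 1.20-fold of both lymphoid lines. miR-16, processed from the same chromosome 13 transcript and from a second locus on chromosome 3, had 3664 scaled counts in U937, 3242 in Jurkat and 3527 in Raji against 664 in Meg01 and 1599.6 in K562.

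miR-15b, which lies beside the second miR-16 copy within SMC4 at chr3:160404607-160404628, varied less. It had 3327 scaled counts in U937, 1748 in Meg01, 2867 in Jurkat, 3042 in Raji and 2386 in K562, so that no line was past 2-fold from U937. The difference between U937 and Meg01 was therefore at least 97.0-fold for miR-15a, 5.52-fold for miR-16 and 1.90-fold for miR-15b. miR-424, with the same seed and an X-linked locus, had 135 scaled counts in U937 and 60.1 in Meg01, a 2.24-fold difference that was under 2-fold on unscaled counts and on counts scaled to the total.

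**Figure D3:**
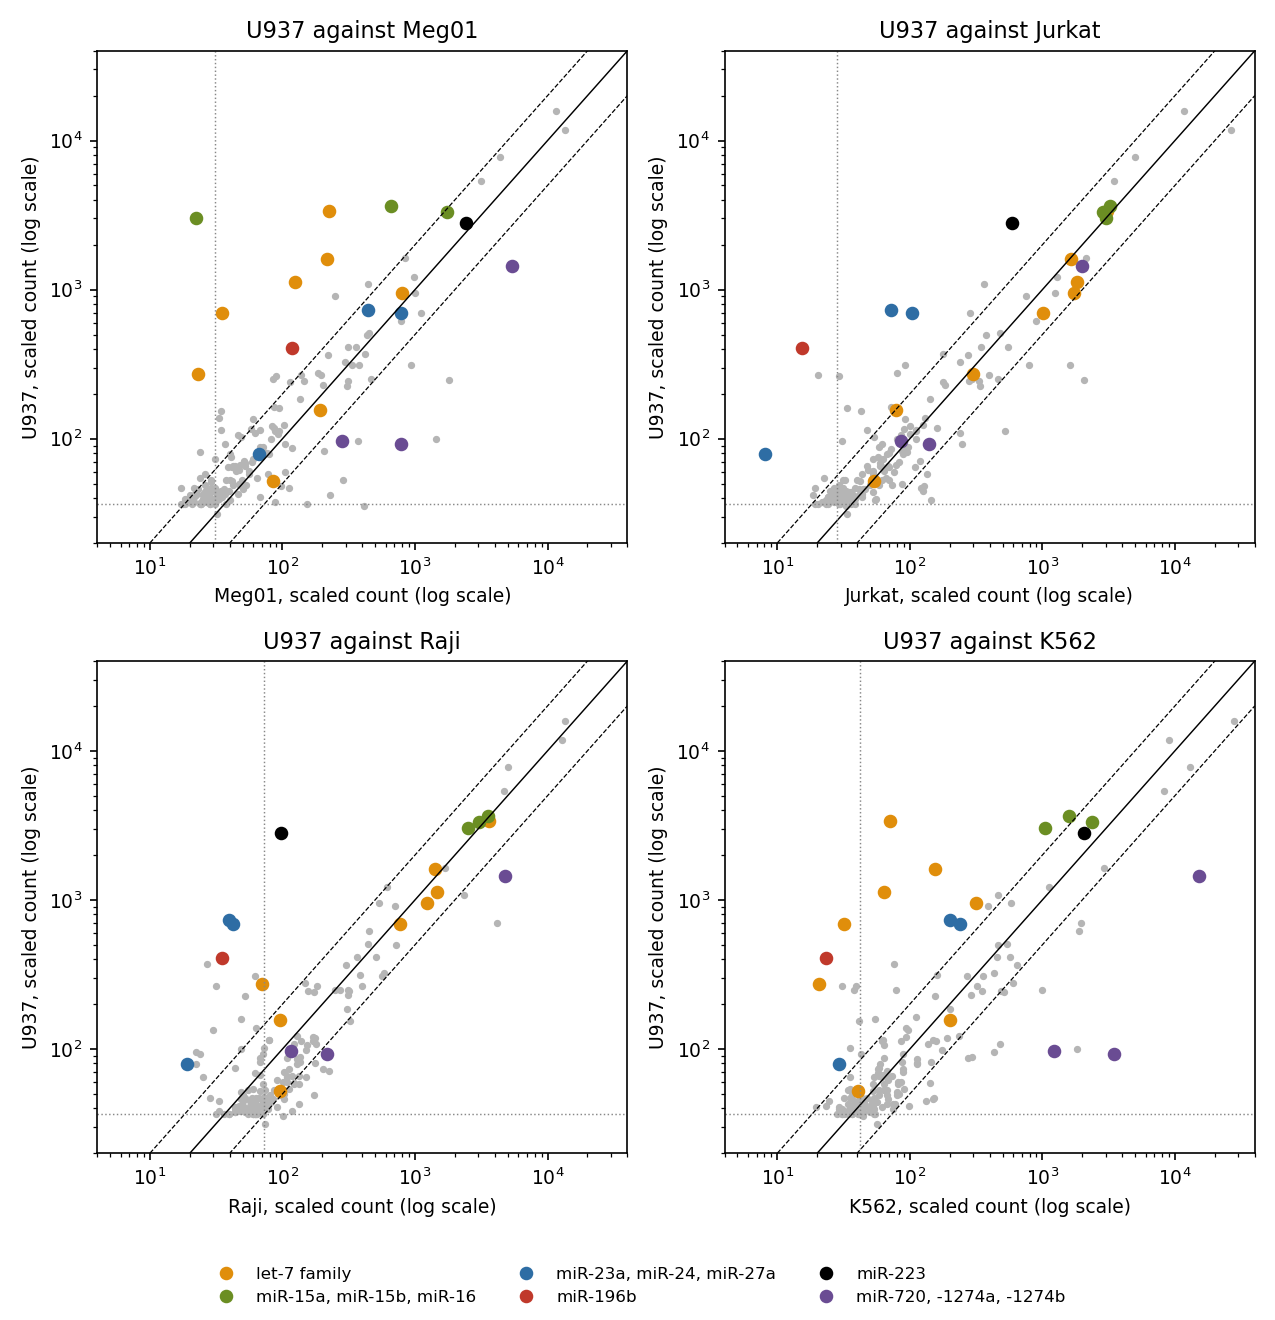
Scaled counts of the 187 probes in U937 (vertical, log axis) against each of the other lines (horizontal, log axis). The solid line marks equality, dashed lines 2-fold and dotted lines the thresholds. let-7d, let-7f, let-7g, let-7i, miR-98 and miR-15a lie far above the diagonal in the Meg01 panel, and the same let-7 probes also in the K562 panel. miR-223, miR-23a and miR-24 do so in the Jurkat and Raji panels.

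Against the lymphoid lines the differences lay elsewhere. U937 was past 2-fold higher than Jurkat for 17 probes (9.09%) and lower for 12 (6.42%), with a median log2 ratio of 0.21, and higher than Raji for 10 (5.35%) and lower for 22 (11.8%), with a median of -0.69. miR-223, which restrains granulocyte proliferation and activation, had 2798 scaled counts in U937, 2424 in Meg01, 2059 in K562, 589.5 in Jurkat and 97.9 in Raji. U937 exceeded Raji by 28.6-fold (22.2 to 37.4) and Jurkat by 4.75-fold (4.37 to 5.16), but Meg01 by 1.15-fold and K562 by 1.36-fold. miR-223 therefore separated the U937 sample from the lymphoid lines and not from the other 2 myeloid lines.

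The miR-23a, miR-27a and miR-24 cluster, whose members are known to be raised by the myeloid factor PU.1 and to act against B cell development, followed a similar order. miR-23a had 731 scaled counts in U937, 443 in Meg01, 202 in K562 and 72.5 in Jurkat and was below threshold in Raji. miR-24 had 692 in U937, 788 in Meg01, 239.7 in K562 and 105 in Jurkat and was below threshold in Raji. miR-27a was the faintest, with 79.3 in U937 and 66.7 in Meg01 and values below threshold elsewhere. All 3 were thus near or above Meg01 in U937, and miR-23a and miR-24 were lower in both lymphoid lines than in K562.

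U937 exceeded Jurkat by 10.1-fold (8.09 to 12.7) for miR-23a, 6.61-fold (5.47 to 8.04) for miR-24 and at least 2.81-fold for miR-27a, and Raji by at least 10.1-fold and 9.55-fold for the first 2. The miRNAs that come from the paralogous cluster on chromosome 9 alone did not show this. miR-24 has a copy in that cluster too, with the same mature sequence, so its probe reads both loci. miR-27b had 414 scaled counts in U937 and between 314 and 566 in the other lines. miR-23b was faint, with 38.6 in U937, 40.0 in Meg01 and 54.8 in Jurkat, whose threshold is 28.2, and it was below threshold in Raji. Because miR-23a and miR-23b, like miR-27a and miR-27b, share their seed and most of their length, signal can pass between their probes, and its part in these values was not tested. Of the 5 probes of both clusters, 3 were past 2-fold higher in U937 than in Jurkat (9.09% of all 187 probes), 2 than in Raji (5.35%), 2 than in K562 (11.8%) and 0 than in Meg01 (12.3%).

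miR-221, a regulator of KIT and of the cell cycle inhibitor CDKN1B, had 370.4 scaled counts in U937, 421 in Meg01, 177 in Jurkat and 75.8 in K562 and was below threshold in Raji. It exceeded K562 by 4.88-fold (3.72 to 6.51), Raji by at least 5.12-fold and Jurkat by 2.09-fold, the last under 2-fold on unscaled counts. miR-222, with the same seed and from the same transcript, was fainter, with 102 scaled counts in U937 and between 48.9 and 72.6 in Meg01, Jurkat and Raji, and it was below threshold in K562. It exceeded K562 by at least 2.41-fold under all scalings and Meg01 by 2.09-fold, the latter under 2-fold on unscaled counts and on counts scaled to the total.

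The inflammation-associated miR-155 and miR-146a joined U937 with Raji instead. miR-155, known from activated B cells, T cells and macrophages, had 264 scaled counts in U937 and 401 in Raji but 89.7 in Meg01 and 29.0 in Jurkat, and it was below threshold in K562. miR-146a, a feedback inhibitor of Toll-like receptor signaling, had 153 scaled counts in U937 and 325 in Raji but 34.1 in Meg01 and 42.7 in Jurkat, and it too was below threshold in K562. For both miRNAs U937 was second to Raji and clear of the other lines. U937 exceeded Jurkat by 9.10-fold (6.40 to 13.3) for miR-155 and 3.59-fold (2.61 to 5.02) for miR-146a. Raji was 1.52-fold (1.27 to 1.82) above U937 for miR-155 and 2.12-fold (1.71 to 2.64) for miR-146a, the latter under 2-fold with 3 of 4 other scalings.

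miR-29a and miR-21 were also highest in Raji. miR-29a, a repressor of collagen and DNA methyltransferase transcripts, had 1085 scaled counts in U937, 2341 in Raji, 465 in K562, 439 in Meg01 and 363.2 in Jurkat. miR-21, a widely expressed miRNA raised in many tumors, had 702 in U937, 4172 in Raji, 1942 in K562, 1102 in Meg01 and 282 in Jurkat. U937 was therefore 5.94-fold (5.46 to 6.48) below Raji and 2.49-fold above Jurkat for miR-21, the latter under 2-fold on unscaled counts. The ratio to Raji, unlike the other 21 of the 22 probes lower than in Raji, was past 2-fold under all 4 alternative scalings.

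Some miRNAs were low in U937 against 1 or more lines. miR-126 had 100.2 scaled counts in U937 against 1449 in Meg01 and 1812 in K562, and was at 79.7 in Jurkat and below threshold in Raji. It was 14.5-fold (11.8 to 17.9) below Meg01 and 18.1-fold (14.7 to 22.5) below K562, the converse of the let-7 pattern. miR-125a-5p, which targets regulators of apoptosis and is known from hematopoietic stem cells, had 96.0 scaled counts in U937, 371 in Meg01, 428 in K562 and 30.6 in Jurkat and was below threshold in Raji. It was 3.86-fold and 4.46-fold below Meg01 and K562 and 3.14-fold above Jurkat. miR-125b was below threshold in U937, with a raw count of 34, and had 415 scaled counts in Meg01, 101 in Raji, 44.0 in K562 and 33.0 in Jurkat, so that Meg01 was at least 11.4-fold above U937. miR-579, the other probe that entered through the 4 other lines, had a raw count of 30 in U937 and between 42 and 47 elsewhere.

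miR-181a, which sets the strength of T cell receptor signaling, had 248 scaled counts in U937 and 270.0 in Raji, against 2054 in Jurkat, 1792 in Meg01 and 78.3 in K562. U937 was 8.27-fold (7.24 to 9.49) below Jurkat, 7.22-fold (6.31 to 8.28) below Meg01 and 3.17-fold above K562. miR-29c had 314 scaled counts in U937, 376 in Meg01, 382 in Raji and 159 in K562 but 1602 in Jurkat, a 5.10-fold (4.52 to 5.78) difference. miR-342-3p had 113 in U937, 94.2 in Meg01, 169 in Raji and 85.6 in K562 but 525 in Jurkat, a 4.66-fold (3.80 to 5.77) difference. Jurkat was the highest line for each of these 3 miRNAs, and all 12 probes lower in U937 than in Jurkat remained past 2-fold under the 4 alternative scalings.

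Several probes that are listed as miRNAs but match transfer RNA or other structural RNA were low in U937 against Meg01 and K562. The probe of miR-720, a fragment of a transfer RNA, had 1442 scaled counts in U937, 1988 in Jurkat, 4763 in Raji, 5418 in Meg01 and 15080.3 in K562. The probe of miR-1274a, which matches the end of a lysine transfer RNA, had 92.9 in U937, 138.5 in Jurkat, 216 in Raji, 787 in Meg01 and 3498 in K562. U937 was the lowest of the 5 lines for both. K562 was 37.7-fold (30.5 to 47.1) above U937 for miR-1274a, 12.6-fold (10.1 to 15.7) for miR-1274b and 10.5-fold (9.89 to 11.1) for miR-720. Of the 9 compared probes of this kind, 7 were past 2-fold lower in U937 than in K562 (9.63% of all 187 probes), 4 than in Meg01 (8.02%), 3 than in Raji (11.8%) and 0 than in Jurkat (6.42%). The median log2 ratios of the 9 were -1.27 against K562 and -0.90 against Meg01, beside -0.16 and 0.35 over all probes. Against Raji and Jurkat they were -0.79 and 0.02, nearer to the -0.69 and 0.21 over all probes. Of the 7 probes lower than in K562, miR-1308, miR-1977 and miR-1979 were under 2-fold on counts scaled to the total or to the positive controls, which leaves 4 under all scalings. Only miR-1246 and miR-1979 were past 2-fold higher in U937, both against Jurkat and the former also against Raji.

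**Figure D4:**
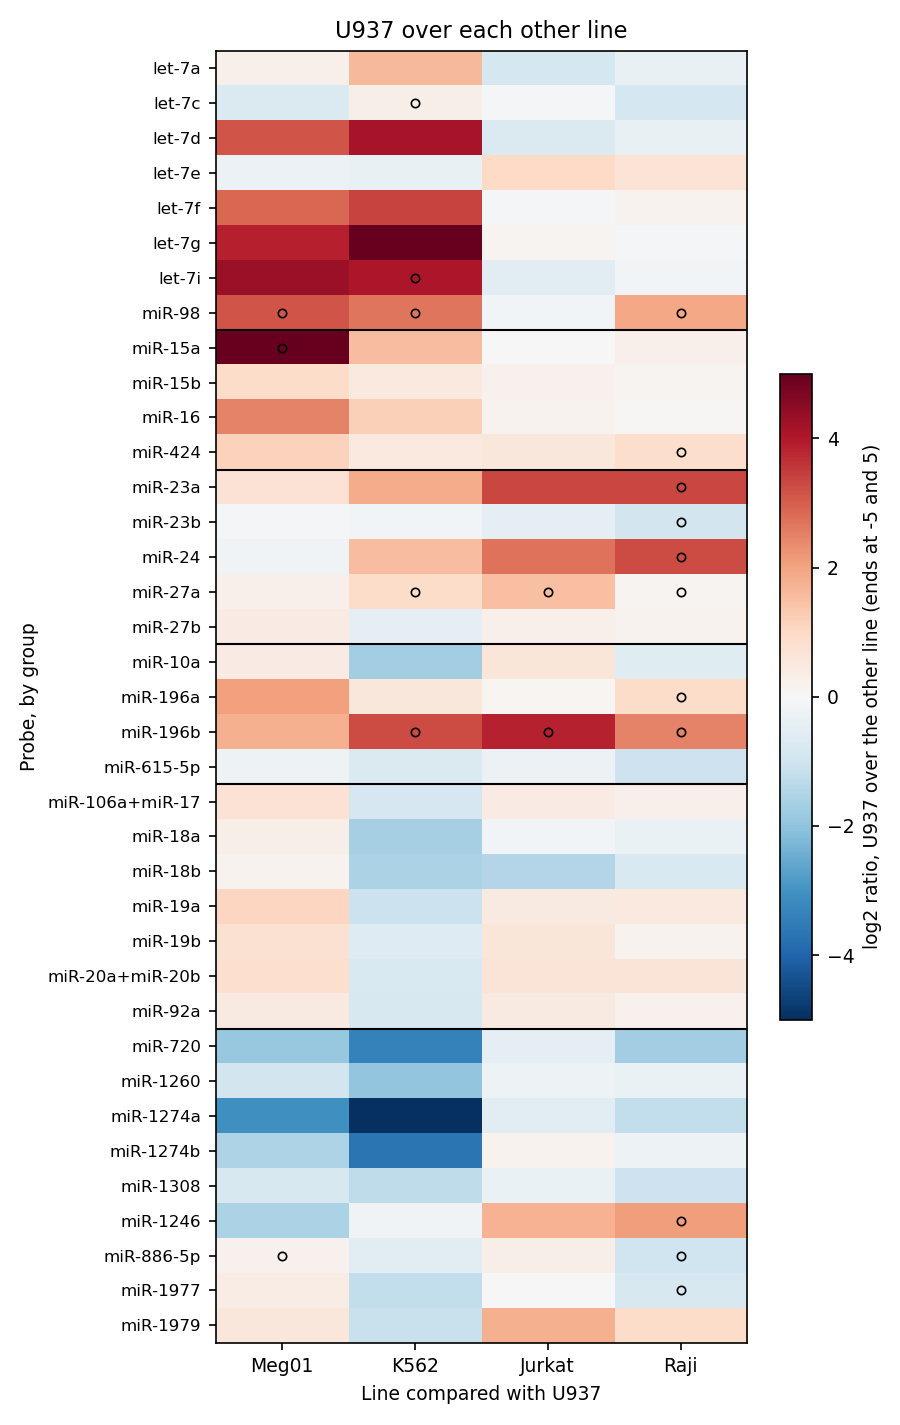
Log2 ratio of U937 over each other line for the compared probes of 6 groups, in red where U937 was higher and in blue where it was lower, with a circle where the ratio is a bound. The color scale ends at -5 and 5, which let-7g against K562, miR-15a against Meg01 and miR-1274a against K562 exceed.

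The 4 probes with the most counts in U937 were high in all lines, without regard to how well each probe captures its target. miR-92a led with 15789 scaled counts, followed by miR-142-3p with 11759.9, the shared probe of miR-20a and miR-20b with 7799, and miR-19b with 5342. miR-92a, the miR-20 probe and miR-19b belong to the miR-17-92 cluster, known from MYC-driven tumors, and its paralog. They were within 2-fold of every other line. Of the 7 compared probes of both clusters, U937 was past 2-fold lower than K562 for miR-18a, miR-18b and miR-19a (9.63% of all 187 probes) and lower than Jurkat for miR-18b (6.42%). The median log2 ratio of the 7 was -0.83 against K562, 0.71 against Meg01, 0.44 against Jurkat and 0.23 against Raji. Over all probes these medians were -0.16, 0.35, 0.21 and -0.69. U937 was past 2-fold higher than Meg01 for miR-19a (12.3%), by 2.12-fold, though not on unscaled counts or counts scaled to the total. None of the 3 differences from K562 was past 2-fold under all scalings. That of miR-19a was under 2-fold with each of the 4 other scalings, and those of miR-18a and miR-18b were so on counts scaled to the positive controls. miR-142-3p, a miRNA of all blood cells, was 2.25-fold (2.21 to 2.30) higher in Jurkat than in U937.

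The remaining families, apart from the DLK1-DIO3 region, gave smaller or single differences. miR-148a, which targets the DNA methyltransferase DNMT1, had 909.8 scaled counts in U937, 757 in Jurkat and 709 in Raji against 388 in K562 and 247 in Meg01. It was 3.69-fold (3.24 to 4.19) above Meg01 and 2.35-fold above K562, while miR-148b, with the same seed, was within 2-fold of all lines and lowest in U937. miR-9, named after its values were seen and known from neural tissue and from leukemias with MLL rearrangements, had 250.4 scaled counts in U937, 248 in Raji, 461 in Jurkat and 85.3 in Meg01 and was below threshold in K562, at least 5.91-fold below U937. Both miRNAs thus had U937 near the lymphoid lines and above Meg01 and K562, as let-7 did.

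miR-130b and miR-301a, which share a seed, were below Jurkat in U937 by 2.22-fold and 2.66-fold, and miR-130b was also 4.41-fold (3.54 to 5.52) below K562. The 3 probes of the miR-106b-25 cluster and the 3 compared probes of the miR-26 and miR-34 families had no ratio past 2-fold in any pair. Over all 187 probes the shares were 5.35% to 12.3% higher and 6.42% to 11.8% lower, and with so few probes none is near those shares. Of the 5 miR-30 probes, 2 were past 2-fold from a line, miR-30a and miR-30e, both lower than Raji (11.8% of all 187 probes). miR-30a had 49.0 scaled counts in U937 and 172 in Raji, a 3.51-fold (2.47 to 5.05) difference that was under 2-fold on counts scaled to the positive controls, as was that of miR-30e, which was under 2-fold on unscaled counts too. Of 33 probes of the DLK1-DIO3 region, 7 entered the comparison, and miR-136, miR-410 and miR-431 were past 2-fold lower in U937 than in Meg01 (8.02% of all 187 probes), where miR-136 had 287 and miR-431 229 scaled counts against 53.2 and 41.7 in U937. In the same list miR-494 was 2.26-fold higher in U937 than in Jurkat and miR-379 past 2-fold lower than in Raji.

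The lineage markers of U937 were read from the full lists. Of 5 myeloid markers, miR-223, miR-424, miR-155 and miR-146a were above threshold and miR-22 was not, with a raw count of 21. The scaled counts of the list summed to 3372 in U937, 2657 in Meg01, 2379 in K562, 924 in Raji and 788 in Jurkat. miR-223 alone made up 2798 of this sum in U937, 2424 in Meg01 and 2059 in K562, so the sum mostly restates that probe. A wider list of 15 monocyte and myeloid miRNAs, of which 10 were compared, did not place U937 highest. This list had 12 probes above threshold in Meg01 and in Jurkat, 10 in U937, 8 in K562 and 7 in Raji. Its scaled counts summed to 4509 in U937, 5767 in Raji, 4756 in K562, 4098 in Meg01 and 1972 in Jurkat, with miR-21 alone at 4172 in Raji. U937 was past 2-fold higher for 1 of the 10 and lower for 3 against Raji (5.35% and 11.8% of all 187 probes), and higher for 4 and lower for 1 against Jurkat (9.09% and 6.42%). These counts were 3 and 0 against Meg01 (12.3% and 8.02%) and 2 and 1 against K562 (11.8% and 9.63%). Of 3 erythroid markers none was above threshold in U937, and miR-451, miR-144 and miR-486-3p had raw counts of 13, 16 and 16. They were above threshold in Meg01 and K562, where miR-144 had 727 and 264 scaled counts. Of 4 lymphoid markers, miR-150 and miR-181c were below threshold, and their list summed to 334 scaled counts in U937 against 3064 in Jurkat, 1929 in Meg01, 407 in Raji and 174 in K562. Of 13 markers of epithelium, liver and muscle, miR-203 and miR-206 were above threshold in U937, with 40.7 and 85.6 scaled counts. Of 4 megakaryocytic and progenitor markers, miR-126 and miR-10a were above threshold in U937, whereas miR-10b and miR-130a were not, with raw counts of 28 and 10.

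The rule left out 467 probes, of which 346 were above threshold in no line and 121 in 1 to 3 lines other than U937. In 28 of these the highest line was past 2-fold above the threshold of U937, and in 13 past 5-fold. They included miR-150, with 829.5 scaled counts in Jurkat, miR-144 in Meg01 and miR-363 with 589.5 scaled counts in Jurkat. Also among them were miR-377, miR-495 and miR-376c of the imprinted DLK1-DIO3 region, with 429, 425 and 307 scaled counts in Meg01. U937 was below threshold for all of these, with raw counts between 16 and 32. When each pair was given all probes above threshold in either of its lines, U937 was past 2-fold lower for 31 probes against Meg01, 17 against Jurkat, 27 against Raji and 27 against K562, while the numbers higher stayed at 23, 17, 10 and 22. The excess of higher probes against Meg01, Jurkat and K562 under the rule was thus not kept.

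The balance of higher and lower probes depended on the scaling, most of all against Raji, whose counts were the lowest. There, U937 had 10 probes higher and 22 lower, but 27 and 6 on unscaled counts, 14 and 15 on counts scaled to the total, and 44 and 1 on counts scaled to the positive controls. The median log2 ratio to Raji over the 187 probes ranged from -0.69 to 0.27 over these settings. Of the 22 lower probes, 12 had a Raji count under 2 times its threshold, and for 7 the interval was past 2-fold. Of the 10 higher probes, 9 were bounds, and all 10 were kept under each scaling.

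In the other pairs the shifts were smaller. Against Meg01, 14 probes were higher and 20 lower on unscaled counts and 17 each way on counts scaled to the total, and the median log2 ratio ranged from -0.15 to 0.41. Against Jurkat the split was 13 and 18 on unscaled counts, and the median ranged from -0.16 to 0.31. Against K562 it was 29 and 14 on counts scaled to the total and 43 and 10 on counts scaled to the positive controls, and the median ranged from -0.16 to 0.51. No probe past 2-fold in any pair turned its direction under another scaling. Of the probes past 2-fold higher in U937, 14 of 23 against Meg01, 13 of 17 against Jurkat and 22 of 22 against K562 stayed so under all 4 alternative scalings, and of those lower 14 of 15, 12 of 12 and 10 of 18.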

How the data were processed

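Total RNA of 5 established cell lines, 1 sample each, was measured on the nCounter human miRNA panel. Per the labels the RNA was isolated with Trizol and 100 ng were assayed. The authors deposited raw counts of 753 probes per line, of which 654 were human miRNAs, 80 virus miRNAs, 5 housekeeping mRNAs and 8 negative and 6 positive controls. A second deposited table holds signal values in which 1 constant per line had been taken off each raw count of a human probe, and it served only as an alternative. The methods name 2 kit versions without assigning them to lines. An aligner does not apply to this assay.

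Raw counts were scaled by the geometric mean of the 100 human probes with the highest mean count over the 5 lines. The threshold was the mean plus 2 SD of the 8 scaled negative controls. The ratios are of scaled counts without background subtraction. A line at or below its threshold entered at it, so that the ratio is a bound, and a ratio was counted past 2-fold only if the higher line was above its threshold. Counts have exact Poisson and ratios conditional binomial 95% intervals, which take in counting error and leave out any variation among cultures, extractions or lanes. Python 3.11.15, numpy 2.4.6, pandas 2.3.3, scipy 1.17.1 and matplotlib 3.10.9 were used, and the calculations were tested on simulated counts. Sequences and positions were read from RefSeq tables for GRCh38.p14, in which 32 of 33 probes looked up had an entry. Named probes were those past 2-fold outside the range of the other lines, the 10 highest in U937, the 3 largest ratios each way per pair, and members of 21 lists, and any other probe named was chosen after its values were seen. The probes compared and the lists were chosen with earlier results of these data known. Alternatives were other scalings (none, total counts, positive controls, the 100 highest within each line), other thresholds (mean or highest of the negative controls, none), threshold subtraction, the deposited signals and, for the range, leaving out Raji.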

Additional observations from a re-analysis of the deposited data

Results flagged for a closer look

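The panel also holds 80 probes for virus miRNAs, which entered no comparison. In U937, 13 of these were above the threshold of the line. The other lines had 8 in Meg01, 17 in Jurkat, 19 in Raji and 10 in K562, so the number in U937 lay within their range. For 0 of the 13 virus probes above threshold in U937 was this line above every other by its counting interval.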

How the results depend on the processing

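The number of probes of U937 past 2-fold above the range of the other lines, 1 as reported, was 4 with scaling to the positive controls (miR-1537, miR-199b-5p and miR-222 added), 3 with the threshold subtracted (miR-1537 and miR-199b-5p added), 4 with the deposited signals (miR-199b-5p, the shared miR-199a-3p and miR-199b-3p probe and miR-23a added) and 4 without Raji (miR-146a, miR-155 and miR-29a added). miR-196b was past 2-fold above the range under all 10 alternatives, with ratios to the next line from 2.42 to 4.72. The number below the range, 0 as reported, was 2 with the threshold subtracted (miR-1308 and miR-379), 1 with no threshold (miR-151-5p) and 1 without Raji (miR-183). Numbers past 2-fold either way, 38 against Meg01, 29 against Jurkat, 32 against Raji and 40 against K562, became 70 against Meg01 and 95 against Raji with the mean of the negative controls as threshold, 64 against Meg01, 65 against Jurkat and 79 against K562 with the threshold subtracted, 61 against Meg01 and 55 against Raji with the deposited signals, and 125 against Meg01, 61 against Jurkat, 175 against Raji and 95 against K562 with no threshold. A lower or missing threshold admits more probes near background, and the cause of the other shifts was not tested. The alternative with all probes above threshold in either line of a pair was chosen after seeing the data. None of the 25 log2 ratios followed turned direction, over 225 values under alternatives. No paired analysis was possible because each line has 1 sample and the labels give no shared replicate numbers. Counts near the threshold limit what can be compared, most of all in Raji.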
